A study of Mus musculus with 10 samples.

Results

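The plasminogen activator system was represented by 6 genes, Plau, Plaur, Plat, Serpine2, Serpinb2 and Lrp1, of 19272 genes with a symbol on the arrays. They were chosen by name, and all 12 probes that carried one of these names were kept. Plau encodes urokinase (uPA) and Plat encodes tissue plasminogen activator (tPA), the proteases that cleave plasminogen to plasmin. Plasmin degrades fibrin and other matrix proteins and activates matrix metalloproteinases. Plaur encodes uPAR, the receptor that holds urokinase at the cell surface. Serpine2 (protease nexin 1) and Serpinb2 (PAI-2) encode serpins that inhibit both activators, and Lrp1 encodes an endocytic receptor that clears activator and inhibitor complexes. In breast tumors, urokinase and its receptor are known from both the malignant cells and the macrophages and fibroblasts around them.

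The samples were 10 mouse tumors, 5 sarcomatoid and 5 adenocarcinoma, and the design asked which genes differ between these groups. In the sarcomatoid group the arrays of tumor numbers 323 and 307 were labelled sarcomatoid adenocarcinoma, and 594 was labelled sarcomatoid carcinoma. The sarcomatoid arrays came from mammary tumors 323, 307 and 594 and from lung tumors of the numbers 323 and 307, labelled as transplanted. They therefore held 3 tumor origins in 5 arrays, and each lung tumor grew after tail vein injection of a cell line made from its primary tumor. According to the methods, the sarcomatoid primary tumors carried either Pik3caH1047R and Trp53R270H together, or Pik3caH1047R with a spontaneous Trp53R245H mutation, or Trp53R270H alone. The adenocarcinomas, numbers 105, 131, 470, 17 and 85, were mammary primary tumors with Pik3caH1047R and Trp53R270H together. All primary tumors carried the MMTV-Cre transgene, whose promoter is active mainly in mammary epithelium, and no array held normal tissue. The ages of the animals were not used here.

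Each value was a log2 ratio of tumor over a common reference RNA on a two-colour Agilent array, so 1 unit is a 2-fold difference between tumors for the same probe, and levels of different probes cannot be set against each other. The direction of the ratio is likely rather than stated. The labels give the tumor dye as cy3 (green), but the green signals varied less between arrays than the red (mean SD of the log2 signal 0.737 against 0.975), and each deposited column followed the red over green ratio of its own array. Red was therefore read as tumor, and every difference between tumors below would change sign if the label were right. Between 53.4% and 84.8% of the probes were well above background in the red channel, and the number of arrays limits the precision. Adenocarcinoma 470 stood apart from its group. Its mean correlation over all probes was 0.494 with the other adenocarcinomas and 0.66 with the sarcomatoid tumors, the only array nearer to the other group, and its epithelial markers were low. Results are therefore given with and without it.

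Plau was higher in the sarcomatoid tumors on both of its probes. Probe A_52_P302433 (mm7, chromosome 14, 18499577 to 18499636) stood for the gene because it was the brighter. Its log2 ratio was 0.93 in mammary tumor 323, 3.39 in the lung tumor of 323, 0.89 in mammary tumor 307, 2.29 in the lung tumor of 307 and 2.0 in mammary tumor 594. In the adenocarcinomas it was −1.06 in tumor 105, −2.35 in 131, 0.90 in 470, −0.19 in 17 and −1.19 in 85. All 5 sarcomatoid values were above 0, 4 of the 5 adenocarcinomas were below 0, and the groups touched only because adenocarcinoma 470 lay at the level of the lowest sarcomatoid tumor. The group means were 1.90 ± 1.04 (SD, n = 5) and −0.78 ± 1.21 (SD, n = 5), a difference of 2.68 (SE 0.62, 95% interval 1.33 to 4.03), or 6.41-fold on the linear scale.

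The difference in Plau did not pass the test across all 40196 probes. Its limma adjusted p (Benjamini-Hochberg) was 0.33, and no probe on the array passed in this comparison, a background of 0% called. The exact two-sided permutation test of this probe alone gave p = 0.0159 over 252 relabellings, of which the smallest possible p is 0.00794. With the lung and mammary arrays of a number averaged to 1 value, so that 3 tumor numbers stood against 5, the difference was 2.70 and the exact permutation p was 0.0357. Without adenocarcinoma 470 the difference was 3.10 (SE 0.56) and the adjusted p was 0.0295 (0.0295 to 0.676 over 20 alternatives). In that fit 1.54% of all probes were called, and Plau was the single member probe that passed. Adenocarcinoma 470 was singled out by its expression in these same data and had the highest Plau of its group (0.90). Leaving it out was thus bound to raise the difference, and this pass is not an independent test. Among arrays read with the same version of the extraction software, the difference was 1.53 in the set of 307, 594, 105 and 470 and 4.08 in the set of both lung tumors with 131, 17 and 85. The third version was used for mammary tumor 323 alone.

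The second Plau probe, A_51_P305311 (mm7, chromosome 14, 18497190 to 18497556, 2.39 kb from the first), was dim. Its red signal was well above background on all 5 sarcomatoid arrays but on 3 of the 5 adenocarcinoma arrays, and its green signal on 4 of 10. The log2 ratios were 0.67 in 323, 1.13 in its lung tumor, 0.82 in 307, 1.21 in its lung tumor and 1.55 in 594. They were −1.22 in adenocarcinoma 105, −0.81 in 131, 0.03 in 470, 0.63 in 17 and 0.22 in 85. The groups did not overlap, as was true for 1.33% of all probes. The difference was 1.3 (SE 0.36, adjusted p = 0.346 by limma, exact permutation p = 0.00794). With tumor numbers averaged the exact permutation p was 0.0536. The difference was 0.43 when the scanner intensities were normalized anew.

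**Figure D1:**
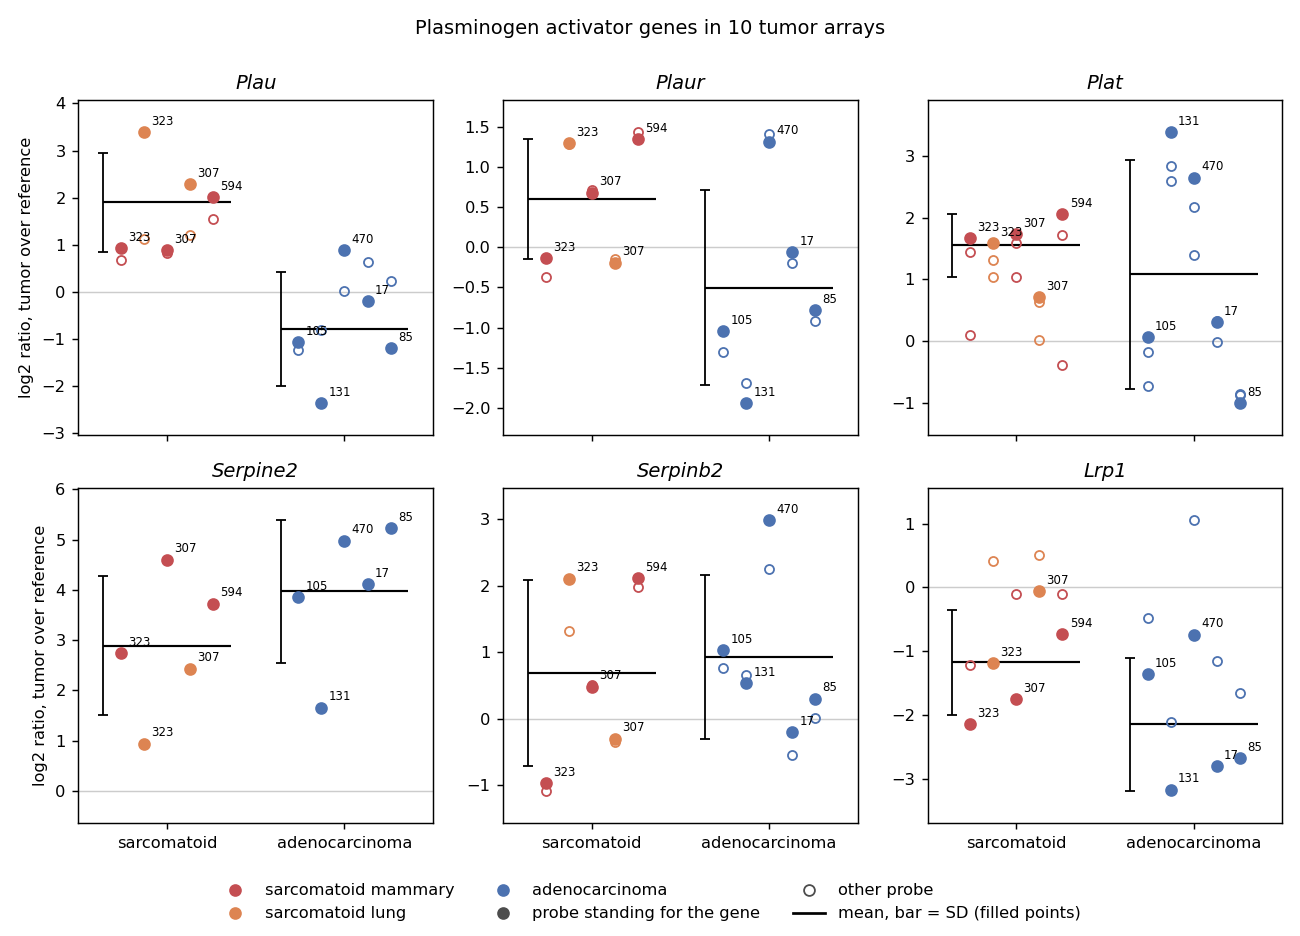
Log2 ratio of tumor over reference (vertical axis) for each of the 6 genes in the 5 sarcomatoid and 5 adenocarcinoma arrays, labelled by tumor number. Filled points are the probe that stands for the gene, open points its other probes, horizontal lines the group means and vertical bars the SD; the sarcomatoid Plau values lie between 0.89 and 3.39 while 4 of 5 adenocarcinomas lie below 0.

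Plaur, the receptor, had 2 probes that gave nearly the same values (Pearson r = 0.99 over 10 arrays). Probe A_52_P681310 (mm7, chromosome 7, 21263487 to 21263546) read −0.14 in 323, 1.29 in its lung tumor, 0.68 in 307, −0.19 in its lung tumor and 1.35 in 594. It read −1.04 in adenocarcinoma 105, −1.94 in 131, 1.32 in 470, −0.06 in 17 and −0.79 in 85. Adenocarcinoma 470 was again among the highest arrays, level with sarcomatoid 594 and the lung tumor of 323, and the groups overlapped. The means were 0.60 ± 0.74 (SD, n = 5) and −0.50 ± 1.22 (SD, n = 5), and the difference of 1.1 (SE 0.56, 95% interval −0.12 to 2.32) did not pass (limma adjusted p = 0.576, exact permutation p = 0.143). Probe A_51_P112405, 1.25 kb away, gave 1.12 (SE 0.57). Without adenocarcinoma 470 the differences were 1.56 and 1.61, with adjusted p of 0.129 and 0.114. Within the 2 sets of arrays that held both groups the first probe differed by 0.88 and 1.48.

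The promoter of Plaur is shown because Plaur and Plau ran together across the tumors and AP-1, a dimer of Fos and Jun proteins, is known to drive genes of this system. Serpinb2, which peaked in the same 3 tumors as Plaur, is shown beside it. The letters are RefSeq sequence of build GRCm38.p6, 100 bases ending just before the annotated start, 5′ to 3′, with the AP-1 motif TGACTCA or its reverse complement TGAGTCA in capitals. Plaur is chr7:24462383-24462482, plus strand, and Serpinb2 is chr1:107511323-107511422, plus strand, the first of its 2 annotated starts.
Plaur: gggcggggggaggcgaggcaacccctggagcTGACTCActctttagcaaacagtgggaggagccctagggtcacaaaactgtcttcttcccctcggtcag
Serpinb2: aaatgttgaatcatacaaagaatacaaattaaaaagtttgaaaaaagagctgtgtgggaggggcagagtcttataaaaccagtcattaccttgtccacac
The Plaur motif began 69 bases before the start. In the 250 bases before each start, searched on both strands, 4.46% of 32851 promoters held this motif, and of the members with an entry (4 of 6, Plaur, Serpine2, Serpinb2 and Lrp1) only Plaur did. The windows differed in base composition, with 59.6% G and C in Plaur and 32.4% in Serpinb2, and the GC box GGGCGG (reverse complement CCGCCC, held by 32.7% of promoters) occurred 3 times in the Plaur window, 6 times in that of Serpine2, once in that of Lrp1 and in neither of the Serpinb2 windows. These are matches of letters and not measured binding sites. Plau had no entry, and whether AP-1 has a part in the Plaur and Plau values was not tested.

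Plat, the other activator, varied most among the adenocarcinomas. Probe A_51_P301566 (mm7, chromosome 8, 21567937 to 21567997) read 1.66 in 323, 1.58 in its lung tumor, 1.73 in 307, 0.71 in its lung tumor and 2.06 in 594. The adenocarcinomas read 0.06 in 105, 3.38 in 131, 2.64 in 470, 0.31 in 17 and −1.0 in 85. The adenocarcinomas thus enclosed all sarcomatoid values, with 2 of them above every sarcomatoid tumor and 3 below. The SD was 0.51 in the sarcomatoid and 1.85 in the adenocarcinoma group (n = 5 each), and the difference of means was 0.47 (SE 0.73, 95% interval −1.13 to 2.06, limma adjusted p = 0.892). Adenocarcinoma 131, the tumor with the highest Plat, had the lowest Plaur of the 10 arrays and the lowest Plau on its brighter probe. On the dim Plau probe adenocarcinoma 105 was lowest (−1.22).

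A second Plat probe, A_52_P409833, followed the first (r = 0.992, n = 10 arrays) and differed by 0.60 (SE 0.62). The other probe, A_52_P405772, lies 6.79 kb from the first, was designed on a separate cDNA and was well above background in red on 4 arrays of each group. It differed by −0.23 (SE 0.65), so the probes of Plat disagreed in sign around 0. Without adenocarcinoma 85 the first probe also turned, to −0.05.

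Serpine2, the inhibitor protease nexin 1, was lower on average in the sarcomatoid tumors. Its probe A_51_P268094 (mm7, chromosome 1, minus strand, 80011225 to 80013842, a span that crosses introns) read 2.75 in 323, 0.94 in its lung tumor, 4.60 in 307, 2.43 in its lung tumor and 3.73 in 594. The adenocarcinomas read 3.86 in 105, 1.66 in 131, 4.98 in 470, 4.12 in 17 and 5.23 in 85. The lowest value belonged to a lung tumor and the highest to an adenocarcinoma, but the mammary sarcomatoid tumors lay among the adenocarcinomas. The means were 2.89 ± 1.39 and 3.97 ± 1.41 (SD, n = 5 each), and the difference of −1.08 (SE 0.75) did not pass (limma adjusted p = 0.707, exact permutation p = 0.278). It was −0.59 without the lung tumor of 323 and −1.66 without adenocarcinoma 131. Among mammary tumors alone it was −0.28 (SE 0.77). A further probe, A_52_P510310, is described as Serpine2 but carries another gene name, was not counted as a member, and differed by −2.29 (adjusted p = 0.419 by limma).

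Serpinb2, which encodes PAI-2, showed no common direction. Probe A_51_P101146 (mm7, chromosome 1, 107424897 to 107424956) read −0.96 in 323, 2.11 in its lung tumor, 0.49 in 307, −0.30 in its lung tumor and 2.12 in 594. The adenocarcinomas read 1.03 in 105, 0.54 in 131, 2.99 in 470, −0.20 in 17 and 0.30 in 85. The 3 highest arrays were 470, 594 and the lung tumor of 323, which were also the 3 highest for Plaur. The difference of −0.24 (SE 0.71, 95% interval −1.79 to 1.31, limma adjusted p = 0.947) had no stable sign. It was −0.71 and 0.69 in the 2 sets of arrays with both groups and 0.27 without adenocarcinoma 470. The overlapping probe A_52_P639522, which starts 40 bases away, gave −0.15 (SE 0.63).

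On its brighter probe Lrp1, the clearance receptor, was low against the reference and somewhat less low in the sarcomatoid tumors. Probe A_51_P193794 (mm7, chromosome 10, minus strand, 127039905 to 127039964) read −2.14 in 323, −1.19 in its lung tumor, −1.75 in 307, −0.06 in its lung tumor and −0.74 in 594. The adenocarcinomas read −1.36 in 105, −3.17 in 131, −0.74 in 470, −2.80 in 17 and −2.67 in 85. Adenocarcinomas 131, 17 and 85 lay below every sarcomatoid tumor, and 105 and 470 lay among them. The difference of 0.97 (SE 0.52, 95% interval −0.17 to 2.11) did not pass (limma adjusted p = 0.6, exact permutation p = 0.127). The set of 307, 594, 105 and 470 gave −0.20 and the set with the lung tumors gave 2.25, so the sign held in only 1 of these sets. Probe A_52_P202045, 49.2 kb away and designed on a separate cDNA, differed by 0.77 (SE 0.55). It was above the reference in the lung tumors of 323 (0.41) and 307 (0.505) and in adenocarcinoma 470 (1.05), and below it on all other arrays. On this probe adenocarcinoma 17 (−1.16) lay slightly above mammary tumor 323 (−1.21). Without 470 the probes differed by 1.32 and 1.25 (adjusted p = 0.229 and 0.195 by limma).

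Over the 12 member probes, 8 were higher and 4 lower in the sarcomatoid tumors, with a median difference of 0.68 against −0.002 over all probes. At an unadjusted p under 0.05 both Plau probes passed and no other member did, 2 of 12, where 9.23% of all probes passed. Without adenocarcinoma 470, 6 of the 12 passed at that level, all higher, where 14.2% of all probes passed. Adenocarcinoma 470 had the highest value of its group on the brighter Plau probe, both Plaur probes and both Lrp1 probes. Leaving it out was thus bound to raise those differences, and this count is not an independent test. The 12 probes share 6 genes and 10 arrays and are not independent. The 12 exact permutation p values of a comparison were not adjusted. The arrays are separate tumors except for the shared numbers. The main limma p-values, SEs and intervals treat all 10 arrays as independent, although the lung and mammary arrays of a number share an origin. They therefore mix variation between tumors with variation within an origin.

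**Figure D2:**
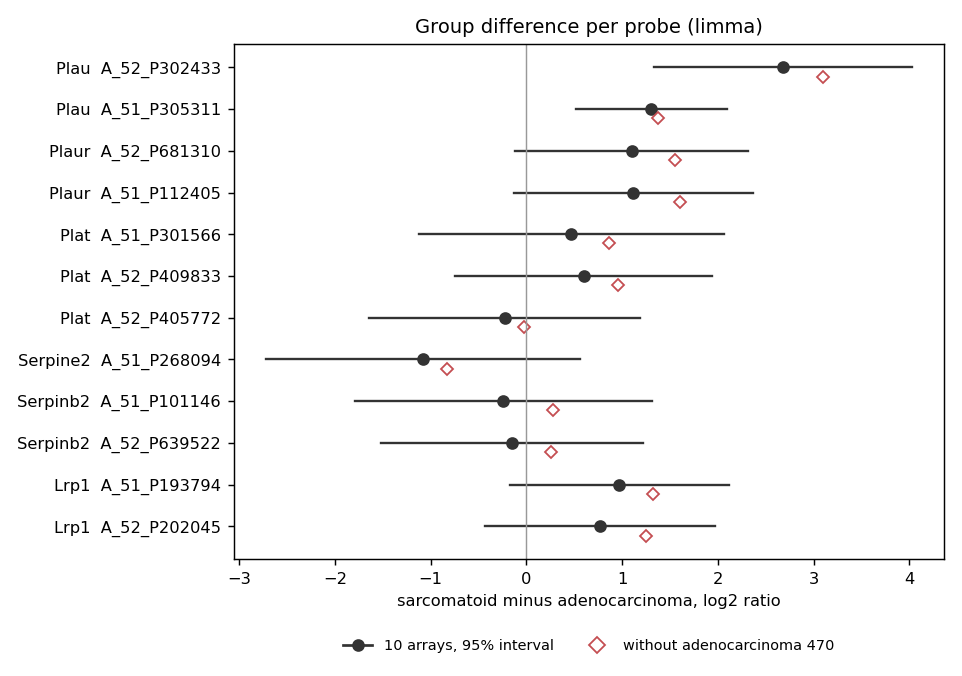
Difference in log2 ratio, sarcomatoid minus adenocarcinoma (horizontal axis), for the 12 member probes. Filled points with lines are the limma estimate and its 95% interval over 10 arrays, and open diamonds the estimate without adenocarcinoma 470; the intervals of both Plau probes lie above 0 and those of the other 10 probes include 0.

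The site of the tumor was held constant by comparing the 3 mammary sarcomatoid tumors with the 5 adenocarcinomas in a fit with 3 groups. No member probe passed and 0% of all probes did. Plau was higher by 2.06 (SE 0.64, limma adjusted p = 0.556, exact permutation p = 0.0536 over 56 relabellings, smallest possible 0.0179), and its second probe by 1.24 (SE 0.43). At an unadjusted p under 0.05 these were again the 2 member probes that passed, where 8.6% of all probes did. Plaur differed by 1.13 (SE 0.67) and 1.13 (SE 0.69). Without adenocarcinoma 470 the Plau difference was 2.47 (adjusted p = 0.0726).

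The lung tumors were compared with the mammary sarcomatoid tumors, 2 against 3, with an exact permutation test that cannot go below p = 0.1. No member passed the limma test, in which 0.0249% of all probes did, and 0 of 12 passed at an unadjusted p under 0.05, where 10.7% of all probes did. Plau was higher in both lung tumors than in the mammary tumor of the same number, by 2.46 for 323 and 1.40 for 307, and the group difference was 1.56 (SE 0.80, adjusted p = 0.517). Its dim probe was higher by 0.45 and 0.39. Serpine2 was lower in both lung tumors, with differences of −1.81 and −2.17 and with a group difference of −2.01 (SE 0.96, adjusted p = 0.493). Lrp1 was higher in both, by 0.95 and 1.69, with a group difference of 0.92 (SE 0.74, adjusted p = 0.692) that was 0.35 without the lung tumor of 307 and 1.48 without that of 323. Without the lung tumor of 323 the Plau difference was 1.01 and that of Serpine2 −1.26.

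The lung tumors of the 2 numbers went opposite ways for the receptor and for PAI-2. The lung minus mammary difference of Plaur was 1.43 for 323 and −0.87 for 307. That of Serpinb2 was 3.07 for 323 and −0.78 for 307, and 2.40 and −0.87 on its second probe. That of the first Plat probe was −0.08 and −1.02. Each of these is a single pair of arrays, so whether the 2 tumors differ was not tested. The lung tumors passed through cell culture and were read with another version of the extraction software than their mammary partners, and site and culture cannot be told apart here. The extraction version can be a term because adenocarcinomas were read with both versions. With it, the lung minus mammary difference was 2.55 (SE 1.16) for Plau, −1.73 (SE 1.44) for Serpine2 and 2.45 (SE 0.69) for Lrp1. The limma adjusted p values were 0.786, 0.905 and 0.565. Mammary tumor 323, alone in its version, does not enter these differences, which set the lung tumors against mammary tumors 307 and 594. The version term rests on adenocarcinomas 105 and 470 against 131, 17 and 85, with mean Lrp1 of −1.05 and −2.88. These values therefore depend on adenocarcinoma 470 and cannot separate site from version in the pairs.

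**Figure D3:**
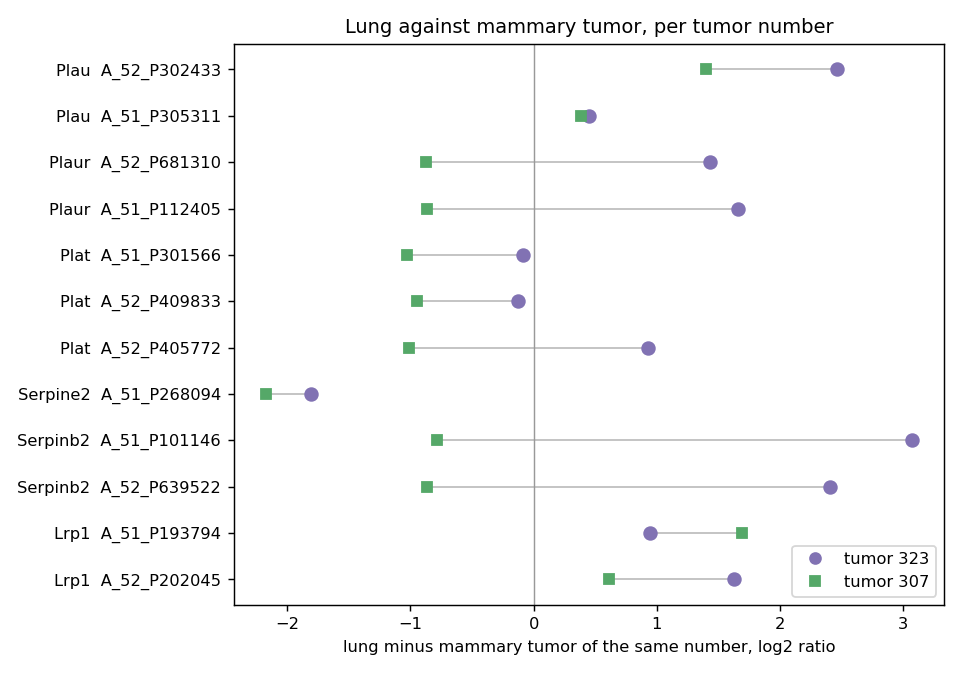
Lung minus mammary log2 ratio of the same tumor number (horizontal axis) for the 12 member probes, tumor 323 as circles and tumor 307 as squares, 1 pair of arrays each. Plau and Lrp1 lie right of 0 and Serpine2 left of 0 in both tumors, while Plaur and Serpinb2 lie on opposite sides.

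Other genes of the plasmin cascade were taken from a list of 40 genes, 1 probe each, in which no gene passed the limma test and 23 were higher and 17 lower in the sarcomatoid tumors (median difference 0.19). Of the 15 proteases and substrates 10 were higher, of the 7 inhibitors 4 and of the 18 receptors, cofactors and clearance genes 9. These counts include probes near background. Of the 10 arrays, red was well above background on 1 for Plg (plasminogen), 2 for Fga and 4 for Klkb1, all counted as higher. It was so on 3 for F12 and 0 for Serpina5 and Lrp1b, all counted as lower. The largest differences upward were those of Mmp9, a gelatinase, at 2.65 (SE 1.23, adjusted p = 0.544), Hgf, a growth factor that urokinase can activate, at 1.78 (SE 0.70, adjusted p = 0.469) and Itga5, an integrin chain, at 1.37 (SE 0.64, adjusted p = 0.546). The largest downward were those of St14 (matriptase, an epithelial membrane protease) at −2.22 (SE 0.95, adjusted p = 0.51), Vldlr, a receptor related to Lrp1, at −1.83 (SE 0.66, adjusted p = 0.437) and Sort1 (sortilin) at −1.43 (SE 0.67, adjusted p = 0.549). At an unadjusted p under 0.05 Hgf and S100a10, a plasminogen-binding partner of annexin A2, were higher, and St14, Vldlr, Hpn and F3 were lower, 6 of 40, where 9.23% of all probes passed. Of these, S100a10, Hpn and F3 were picked after their values were seen. Without adenocarcinoma 470 none of the 40 passed, where 1.54% of all probes did, and 9 were higher and 5 lower at an unadjusted p under 0.05, where 14.2% of all probes passed.

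Markers of some other cell types leaned in a common direction between the groups. Neutrophil, endothelial and lung epithelial markers went both ways, and none of them reached an unadjusted p under 0.05. All 9 epithelial markers were lower in the sarcomatoid tumors (median difference −2.68), with 4 at an unadjusted p under 0.05 (9.23% of all probes), and no marker of any list passed the adjusted test. The mean of the epithelial list ran from −2.63 to 1.44 in the sarcomatoid tumors and from −1.57 to 3.44 in the adenocarcinomas, with adenocarcinoma 470 at −1.57, below every mammary sarcomatoid tumor. All 10 macrophage markers were higher (median difference 1.60, 7 at an unadjusted p under 0.05), with list means from 3.29 to 3.97 in the sarcomatoid tumors and from 1.22 to 3.52 in the adenocarcinomas, 470 having the 3.52. All 10 fibroblast and mesenchymal markers were higher (median 1.03, 2 at an unadjusted p under 0.05), with list means from −1.26 to 1.32 and from −2.50 to 1.53. Neutrophil means (6 of 7 markers measured) ran from 2.45 to 3.24 and from 2.37 to 3.65, endothelial means from 1.87 to 3.74 and from 2.25 to 3.77, and smooth muscle means from −2.0 to 1.57 and from −1.63 to 1.38. Squamous and basal means ran from −0.41 to 1.49 and from 0.46 to 3.17, and lung epithelial means from −0.06 to 0.95 and from −0.002 to 0.94, with the lung tumors at −0.018 and 0.95. All 5 smooth muscle markers were lower in the sarcomatoid tumors (median difference −0.61, 0 at an unadjusted p under 0.05). All 7 squamous and basal markers were lower too (median −0.95, 1 at that level), with 6 of them well above background on at least 5 arrays. Without 470, 4 of 9 epithelial markers passed as lower and 2 of 10 macrophage markers as higher, where 1.54% of all probes passed. Adenocarcinoma 470 had the lowest epithelial and the highest macrophage mean of its group. Leaving it out was thus bound to widen these differences, and these passes are not an independent test.

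Plau was higher where the macrophage list was higher and the epithelial list lower. Over the 10 arrays its Pearson r was 0.825 (Spearman 0.794) with the macrophage mean and −0.823 (Spearman −0.806) with the epithelial mean, as descriptions over arrays that share groups and tumor numbers. The 4 arrays with the lowest macrophage means, adenocarcinomas 131 (1.22), 85 (1.56), 17 (2.51) and 105 (2.76), were the 4 with Plau below 0, and the 6 arrays with macrophage means of 3.29 or more were those with Plau above 0 on its brighter probe. On the dim probe adenocarcinomas 17 and 85 were above 0 too. Among those 6 arrays Plau did not follow the macrophage mean, which was highest in mammary tumor 323 (3.97, with Plau at 0.93). The highest Plau belonged to the lung tumors, whose epithelial means of −1.68 and −2.63 were the lowest of all arrays. Lrp1 on its brighter probe ran with the fibroblast list, lowest in both in adenocarcinomas 131, 17 and 85. In whole tumors, fewer cells of a type and less RNA per cell cannot be told apart, and the part of these cell types in the Plau or Lrp1 values was not tested.

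**Figure D4:**
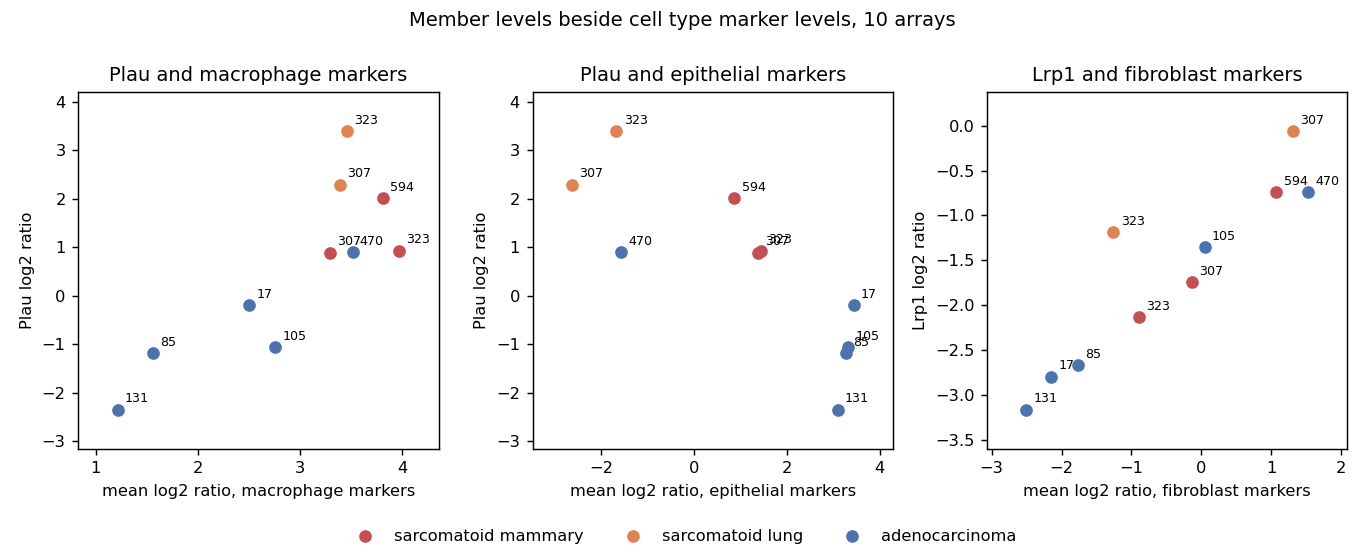
Log2 ratio of Plau (left and centre) and of Lrp1 (right) against the mean log2 ratio of the macrophage, epithelial and fibroblast marker lists in the 10 arrays, labelled by tumor number. Adenocarcinoma 470 lies with the sarcomatoid tumors in all panels, and the other 4 adenocarcinomas hold the 4 lowest macrophage means.

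Among themselves, the members fell into no single pattern. Plau and Plaur had Pearson r = 0.825 (Spearman 0.661) over the 10 arrays and 0.797 after the group means were removed, and Plau and Lrp1 had 0.741 (Spearman 0.77). Plat had r = 0.112 and Serpine2 r = −0.301 with Plau. These are descriptions over arrays that share tumor origins, sets and groups. Of 32154 named probes, those most like Plau by Pearson r over the 10 arrays were Nudt16 (0.990), Gsap (0.976), Piwil4 (0.968), Itgb2 (0.963), the beta chain of leukocyte integrins, and Emp3 (0.961). Those most like Plaur began with Osm (0.963), a cytokine made by myeloid cells, and Hk3 (0.950). Those most like Lrp1 began with Vsir (0.979) and Tbc1d2b (0.978). The closest to Plat was Serpini1 (0.985), which encodes neuroserpin, an inhibitor of tissue plasminogen activator. The closest to Serpinb2 was Cadm3 (0.924). The 3 closest to Serpine2 were above background in red on at most 1 array, and Stk16 (0.926) was the first that was well above background on all 10. Each of these r values is the top of a search over all named probes with only 10 arrays. The same search gave 0.954 for Map3k7cl with Serpine2, a probe well above background in red on 0 arrays. The cell source of the like genes was not tested.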

How the data were processed

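Total RNA of 10 tumors was hybridised with a reference to 2-colour Agilent arrays. The authors deposited scanner intensities with the extraction software's log10 ratios, and a normalized log2 ratio table made with limma per the labels, whose steps are not given in the sources used here. Each column's median lay between −0.051 and 0.067, and its centring is otherwise unknown. That table was the main source. Rows of a probe were averaged (42515 rows, 40196 probes). Alternatives used the intensities (normexp, offset 50, loess) or the software's ratios. Singling out adenocarcinoma 470, and leaving it out for the gene lists, was chosen after seeing the data. Groups were compared with limma 3.58.1 in R 4.3.3, two-sided, Benjamini-Hochberg over all probes, threshold 0.05, with exact two-sided permutation for member probes, and the fit was tested on simulated data. Gene names came from the scanner files; 40 further genes and the like genes were named through RefSeq, and 8040 probes stayed unnamed. Coordinates are mm7, as in the files. The brightest probe stood for a gene. Of the 40 genes, the 3 largest differences each way among probes well above background on at least 5 arrays were named. Members and lists were chosen with earlier results of these data known. Values of a single gene of that list are not reported here.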

Additional observations from a re-analysis of the deposited data

How the results depend on the processing

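Every Plau difference between sarcomatoid tumors and adenocarcinomas stayed positive under the 20 alternatives, from 2.17 to 3.10 for the brighter probe, 2.29 to 3.10 without 1 array (adjusted p 0.0295 to 0.676), and it passed only without adenocarcinoma 470. Both Plaur and both Lrp1 probes also stayed positive and Serpine2 negative (−1.66 to −0.59). The count of called probes was 0 in both comparisons with adenocarcinomas. Scanner intensities with normexp and median centring gave 1, columns centred on their medians 0 and averaging of tumor numbers 2 for the first, and leaving out 1 array gave 0 to 618 for the first and 0 to 210 for the mammary one, with the highest counts without 470. For lung against mammary tumors 10 probes were called, against 2 with scanner intensities and loess, 5 with the extraction software's ratio, 3 without background correction or with normexp and median centring of the intensities, 6 with columns centred on their medians, 22 with quantile normalization, 0 with the extraction version as a term or the tumor number as a replicate block, and 0 to 84 without 1 array (84 without 470, 0 without mammary 323, 307 or adenocarcinoma 17).

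Signs near 0 turned. Against adenocarcinomas, Serpinb2 reached 0.056 and 0.12 with the extraction version as a term, and its second probe 0.10 with tumor numbers averaged. Leaving out 1 array gave −0.60 to 0.27 and −0.53 to 0.26 for Serpinb2 (positive without mammary 323, lung 307 or 470), −0.051 to 1.05 for the first Plat probe and −0.59 to 0.34 for the last. In lung against mammary tumors, Plaur turned to 0.60 and 0.49 with the extraction version as a term, 0.28 and 0.40 with the tumor number block, and its second probe to 0.046 with centred columns and 0.036 with slide as a block. The dim Plau probe turned to −0.63 and the last Plat probe to −0.23 with the extraction version, and the latter to −0.042 with the block. Serpinb2's second probe turned to −0.12 without background correction and −0.057 with quantiles. Without 1 array, these differences ran from −0.017 to 0.42 for the dim Plau probe, −0.82 to 0.66 and −0.74 to 0.69 for Plaur, −0.23 to 0.78 for the last Plat probe, and −0.85 to 1.56 and −0.83 to 0.85 for Serpinb2. The causes were not tested.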
